A study of Rattus norvegicus with 12 samples.

Results

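Rats of the Dahl salt-sensitive (S) and Wistar Kyoto (WKY) strains were compared for circular RNAs (circRNAs) in whole kidney, with 3 male rats of each strain and 1 array per rat. Both groups were 57 days old, had been weaned at 28 to 30 days, and ate a diet with 0.3% NaCl, so the S rats had not been given a high-salt diet. The comparison took the 6 S and WKY arrays out of 12. The other arrays held 3 Dahl salt-resistant (R) and 3 spontaneously hypertensive (SHR) rats of the same sex, age and diet. All 12 RNA samples were treated with RNase R, an exonuclease that degrades linear RNA and leaves closed rings, before labelling with Cy3. The arrays carry 14145 circRNA probes, and a probe was kept if it was well above background on all 3 S or all 3 WKY arrays. This left 11962 probes after 1 was dropped for spots with an outlier flag, and each probe has 1 spot per array. Signals are on a log2 scale, with the 75th percentile of each array's circRNA probes set to 0. The comparison addresses which features of the S kidney hold against a normotensive strain other than R, its usual counterpart.

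CircRNAs form when the splicing machinery joins the end of an exon to the start of the same or an earlier exon of the transcript. The ring has no free ends, so exonucleases attack it slowly and it can accumulate in tissues of slowly dividing cells. Some circRNAs bind microRNAs or proteins, and for most no function is known. S rats develop hypertension and kidney damage when fed salt, R rats were selected from the same stock to resist it, and WKY is the normotensive strain usually paired with SHR. S and R thus share more ancestry with each other than either does with WKY. The files used here name circRNA probes by number and do not pair them with host genes, positions or sequences, so circRNAs are given by probe ID, and whether different probes share a host gene or a sequence is not known. In whole kidney, fewer cells of a type and less RNA per cell cannot be told apart.

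Several arrays stood apart, and the results below are given with that in view. S rat 1 was the dimmest array, with 70.3% of circRNA probes well above background against 90.1% and 83.9% for S rats 2 and 3 and 84.6% to 87.6% for the WKY rats. The strain means were 81.4% ± 10.1 (SD, n = 3) and 86.6% ± 1.70, and they did not differ beyond the spread between rats (exact two-sided permutation test, p = 0.6, the smallest p of 3 rats against 3 being 0.1). S rat 2 correlated less with S rat 1 (Pearson's r = 0.846 across circRNAs) than with WKY rat 1 (r = 0.939) or SHR rat 2 (r = 0.963). Its highest correlations were with R rats 1 and 2 (r = 0.982 and 0.973). SHR rat 2 in turn stood apart from SHR rats 1 and 3. It, too, correlated most with R rats 1 and 2 (r = 0.977 and 0.975). The SD between rats had a median of 0.51 in S and 0.26 in WKY. All S arrays lay in row 1 of slide 1, WKY rats 1 and 2 in row 2 of slide 1, and WKY rat 3 on slide 2. Rows were read from the array barcodes, while slides were inferred, as arrays that share a scan time.

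Probes to linear mRNAs on the same arrays also differed between the strains. The median of the 35 probes to named genes was -2.02, -2.19 and -1.93 in S rats 1 to 3 and -1.35, -0.39 and -0.82 in WKY rats 1 to 3, so the strains did not overlap. The 3 R rats lay with S, at -2.11 to -1.94, and SHR rat 2 did too, at -2.07, while SHR rats 1 and 3 lay at -0.78 and -1.05. The difference between S and WKY was -1.20 log2 units (exact two-sided permutation test over rats, p = 0.1, the smallest p this design can give). Strain and linear mRNA signal cannot be told apart in S vs WKY, whereas the S and R values overlapped, with a mean of -2.05 ± 0.13 in S (SD, n = 3).

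**Figure D1:**
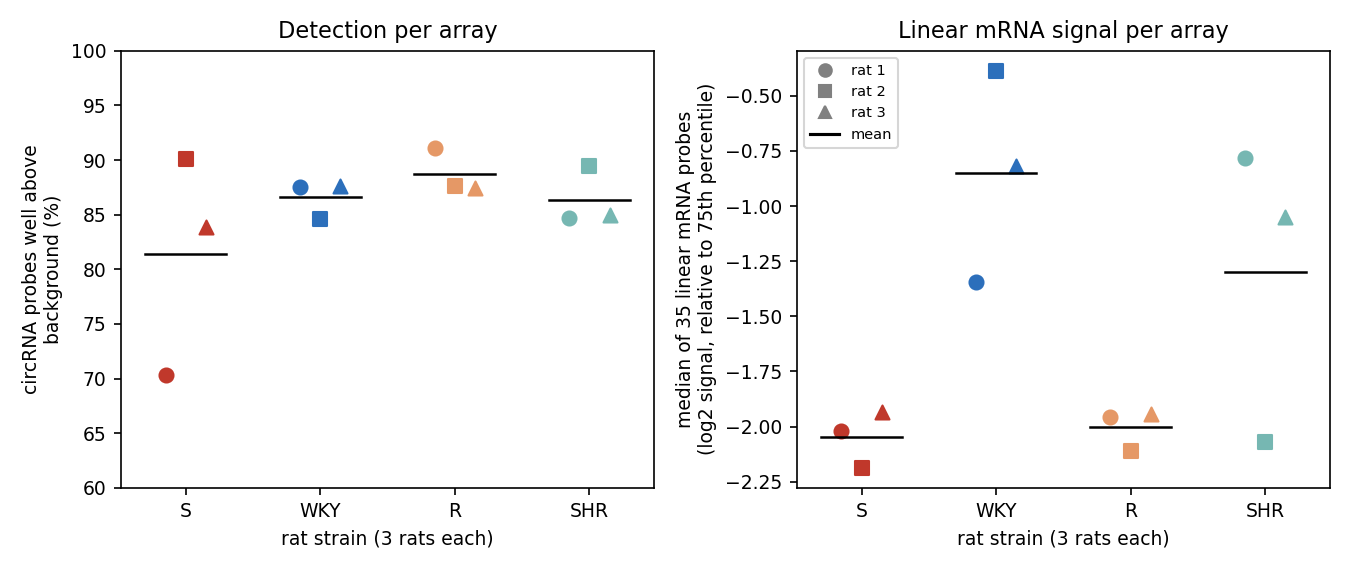
Each point is 1 array (1 rat), with the strain on the x axis and the strain mean as a line. The left panel gives the percent of circRNA probes well above background, where S rat 1 is lowest at 70.3%, and the y axis starts at 60%. The right panel gives the median log2 signal of 35 linear mRNA probes, where the 3 WKY rats (-1.35 to -0.39) lie above the 3 S rats (-2.19 to -1.93) and SHR rat 2 lies with S and R.

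CircRNA signal differed widely between S and WKY kidney. Of the 11962 circRNAs tested, 4178 were called, which is 34.9% (limma, Benjamini-Hochberg adjusted p under 0.05). In S, 2164 were higher (18.1%) and 2014 lower (16.8%). The median size of a called difference was 1.45 log2 units, with a median SE of 0.39, against 0.68 log2 units over all circRNAs tested. Differences of over 2 log2 units were found for 434 called circRNAs higher in S and 534 lower, and differences of over 3 for 143 and 117. The S and WKY values did not overlap for 5384 circRNAs (45%), which included 3899 of those called. With normexp background correction 2089 were called, and with S and WKY fitted alone 2159.

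The direction of the calls by brightness depended on the scaling. When the circRNAs were ranked by their mean over all 12 arrays and cut into 5 equal bins, 33.6% of the brightest bin were higher in S and 15.2% lower. In the dimmest bin the shares were 12.2% and 15.3%, and in the bin next to the brightest 17.2% and 20.7%. Of the calls in the brightest bin, 68.8% were thus higher in S, and this share was 72.4% with median scaling and 46.2% with quantile normalization. In the other bins it lay between 43.1% and 48.1%, and 3 of the 5 bins crossed 50% under each of those scalings. Over all circRNAs the split of 2164 higher and 2014 lower became 2416 and 1794 with median scaling and 1893 and 1978 with quantile normalization. Over the 9676 circRNAs well above background on all 6 arrays, 2017 of the 3228 called were higher in S.

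**Figure D2:**
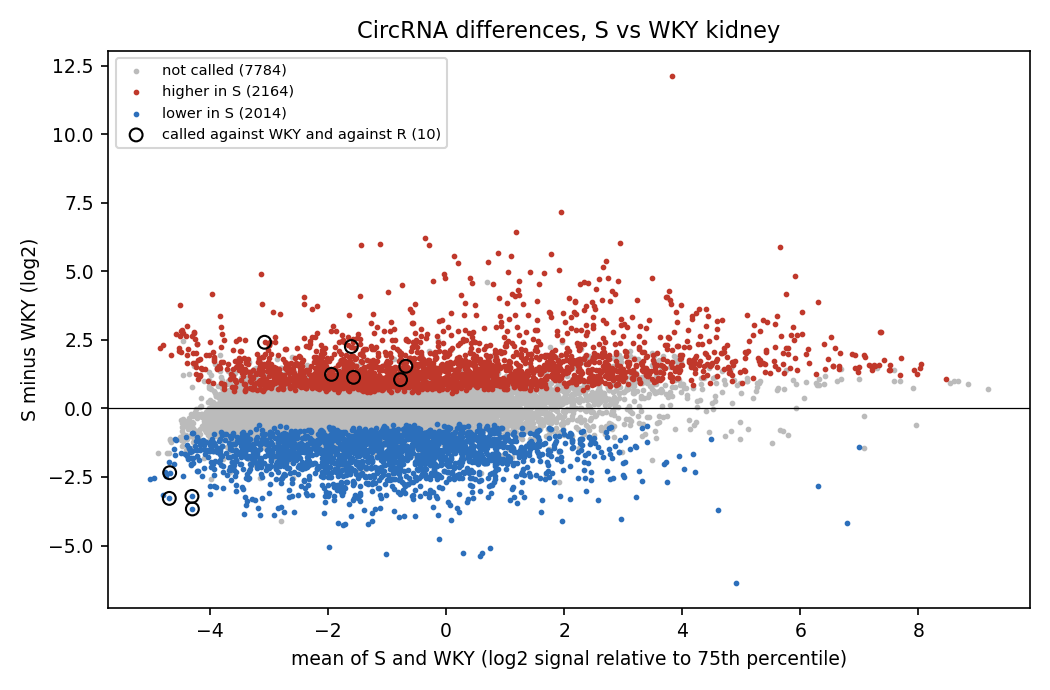
Each point is 1 of 11962 circRNA probes, with the mean of the S and WKY levels on the x axis and S minus WKY on the y axis, both in log2 units. Red marks the 2164 called higher in S, blue the 2014 called lower, grey the rest, and the 10 circled probes were called against both WKY and R. The circled probes lie at low and middle brightness, with S minus WKY from -3.67 to 2.41.

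The 3 S rats did not carry the called differences equally. Over the 2164 circRNAs called higher in S, the median distance above the WKY mean was 1.81 log2 units in S rat 1, 0.79 in S rat 2 and 1.53 in S rat 3. Over the 2014 called lower, the median distances were -2.08, -0.78 and -1.66. S rat 2 was the S rat nearest to the WKY mean for 84.6% of the called circRNAs. WKY rat 1 was the WKY rat nearest to the S mean for 60.4%. Both shares cover only the called circRNAs, which were chosen on these same values. The shares over all circRNAs tested were not computed. Without S rat 2 the count rose to 6354, and without S rat 1 or S rat 3 it fell to 1194 or 1263.

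The circRNAs with the largest rises in S, among those well above background on all 6 arrays, fell into rises that differed among the S rats and rises that did not. ASCRPR013743 had the largest, at 11.67, 7.04 and 10.97 in S rats 1 to 3 against -1.40, -3.26 and -2.03 in WKY rats 1 to 3 (S minus WKY 12.12, SE 2.54, limma adjusted p = 0.00964). The strains were thus far apart on every array, with S rat 2 the lowest of the S rats. In R it lay at 4.37, 8.93 and 9.93, and S minus R was 2.15 (SE 2.54), which was not called (limma adjusted p = 0.634). In SHR it lay at -2.80 and -2.31 in rats 1 and 3 and at 8.56 in rat 2, so that the array with the low linear mRNA signal was the SHR array with the high value.

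ASCRPR007387, ASCRPR008416 and ASCRPR003948 had the same arrangement. ASCRPR007387 was at 7.15, 3.15 and 6.25 in S and -1.17, -2.09 and -1.64 in WKY (S minus WKY 7.15, SE 1.41, limma adjusted p = 0.00824). ASCRPR008416 was at 7.70, 3.38 and 6.85 in S and -0.22, -0.36 and 0.37 in WKY (S minus WKY 6.05, SE 1.33, limma adjusted p = 0.0109). S rat 2 was more than 3 units below the other S rats on both, while the WKY rats lay within 1 unit of each other. ASCRPR003948 was bright in both strains, at 10.99, 4.86 and 9.98 in S and 2.92, 2.31 and 2.90 in WKY (S minus WKY 5.90, SE 1.45, limma adjusted p = 0.0151), and it lost its call without S rat 1, S rat 3 or WKY rat 2, where its log2 fold change ran from 4.71 to 7.77 over the fits that left out 1 rat. SHR rat 2 again lay near S and R on these 3 circRNAs, at 4.01, 5.15 and 5.99, with SHR rats 1 and 3 between -1.81 and 2.39.

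In 4 others the S rats were tightly grouped. ASCRPR006961 was at 4.65, 4.28 and 4.25 in S and -1.37, -2.28 and -2.42 in WKY, 85.6-fold higher (difference 6.42, SE 0.78, limma adjusted p = 0.000786). The values of ASCRPR005925 were 3.17, 2.49 and 2.62 in S and -3.03, -3.70 and -3.66 in WKY, 74.6-fold higher (difference 6.22, SE 0.64, limma adjusted p = 0.000566). On both the S rats lay within 1 unit of each other, S rat 2 included. ASCRPR008472 differed from ASCRPR005925 by at most 0.34 log2 units on any of the 12 arrays, and it had a log2 fold change of 5.95 (SE 0.66, limma adjusted p = 0.000618). ASCRPR005701 ran close to ASCRPR006961, with a gap of at most 0.77, and had a log2 fold change of 5.69 (SE 0.70, limma adjusted p = 0.000786).

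These 4 circRNAs also separated R from WKY. R minus WKY was 4.53 for ASCRPR006961, 3.81 for ASCRPR005925, 3.60 for ASCRPR008472 and 4.08 for ASCRPR005701, with limma adjusted p from 0.027 to 0.0363, where 0.894% of all circRNAs tested were called in R vs WKY. S minus R was smaller, between 1.61 and 2.41, and none of the 4 was called (limma adjusted p = 0.237 to 0.334). Against R their differences were not called, while their R and WKY levels did differ. Every S rat still lay above every R rat on all 4, with an unadjusted limma p of 0.00276 to 0.0405. The share of all circRNAs with this separation was not computed. In S vs R, 1758 of 11962 circRNAs had an unadjusted p under 0.05, and 0.0836% were called. The other 4 of the 8 largest rises were not called against R either (limma adjusted p = 0.392 to 0.634), and for them R minus WKY missed the threshold too (limma adjusted p = 0.063 to 0.157).

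The largest falls in S were on circRNAs that were bright in WKY. ASCRPR005854 was at 1.04, 3.94 and 0.23 in S and 7.90, 8.18 and 8.19 in WKY, 81.5-fold lower (S minus WKY -6.35, SE 1.51, limma adjusted p = 0.0136). The WKY rats lay within 1 unit of each other and S rat 2 was the highest of the S rats, and the call was lost without S rat 1 or S rat 3 (log2 fold change -7.45 to -5.60 with 1 rat left out). ASCRPR013097 was at -2.30, -1.16 and -2.58 in S and 1.64, 5.04 and 3.05 in WKY (S minus WKY -5.26, SE 0.90, limma adjusted p = 0.00485). Here the spread was in WKY, with rat 2 highest and rat 1 lowest.

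ASCRPR010854 was at 3.13, 7.65 and 3.30 in S and 8.62, 9.23 and 8.81 in WKY (S minus WKY -4.20, SE 1.07, limma adjusted p = 0.0167). S rat 2 lay within 1 unit of WKY rat 1, and the call was lost without S rat 1, S rat 3, WKY rat 2 or WKY rat 3, with a log2 fold change of -5.67 to -3.41 when 1 rat was left out. ASCRPR002897 was at 0.26, 1.83 and 0.71 in S and 4.97, 4.59 and 5.39 in WKY (S minus WKY -4.05, SE 0.78, limma adjusted p = 0.00765), a difference that kept its call whichever rat was left out. The remaining 4 were ASCRPR007833, ASCRPR000272, ASCRPR005579 and ASCRPR010089, with log2 fold changes of -4.09, -3.78, -3.69 and -3.46 and limma adjusted p from 0.00844 to 0.0137. On each of these 4, S rat 2 was the highest S rat. ASCRPR005579 lost its call without S rat 1, S rat 3 or WKY rat 2. Against R none of the 8 falls was called, with S minus R between -2.04 and -0.72 and limma adjusted p of 0.331 to 0.778. Of all circRNAs tested, 0.0836% were called in S vs R, so the lack of calls is not a trait of these 8.

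**Figure D3:**
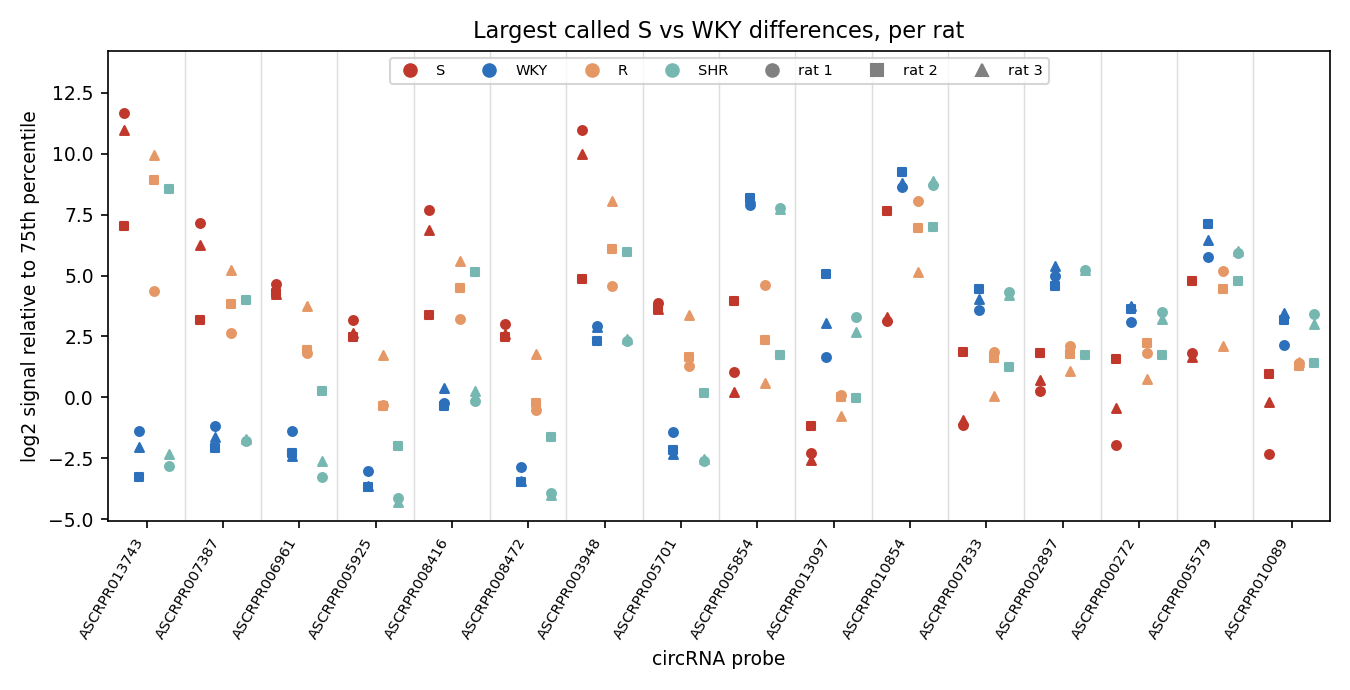
Log2 signal per rat (y axis) of the 16 circRNAs with the largest called rises (left 8) and falls (right 8) in S against WKY, among those well above background on all 6 arrays. Colours are strains and symbols rat numbers. Red S and blue WKY symbols do not overlap in any column, which was a condition for being shown. SHR rat 2 (square) lies away from SHR rats 1 and 3 in most columns.

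R and SHR entered neither side of S vs WKY, only its estimate of spread, and their arrays show where the called circRNAs lay in other rats. SHR rats 1 and 3 were nearer to the S mean than to the WKY mean for 2.63% and 3.95% of the 4178 called circRNAs. SHR rat 2 was nearer to S for 49.5%. R rats 1 to 3 were nearer to S for 40.7%, 49.9% and 84.6%. Over all 11962 circRNAs these shares were 16.8%, 20.0% and 48.9% for SHR rats 1, 3 and 2 and 42.6%, 48.0% and 69.2% for the R rats. SHR rats 1 and 3 were therefore on the WKY side of most called circRNAs and R rat 3 on the S side of most, while SHR rat 2 and R rats 1 and 2 were spread over both sides.

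R vs SHR shares no array with S vs WKY, though SHR rats 1 and 3 also lay above R in linear mRNA signal. Of the 2164 circRNAs higher in S than in WKY, 2020 (93.3%) had a higher mean in R than in SHR, against 48.0% of all circRNAs tested. Of the 2014 lower in S, 1921 (95.4%) had a lower mean in R, against 52.0%. The median R minus SHR was 0.62 over the circRNAs higher in S and -0.64 over those lower. The medians of S minus WKY, by which these circRNAs were chosen, were 1.38 and -1.54 and cannot be set against them for size. Against SHR rats 1 and 3 alone the R medians were 0.85 and -0.89, and against SHR rat 2 they were 0.10 and -0.12. Few single circRNAs passed in R vs SHR, 47 of 11962 (0.393%). Of the 33 higher in R (0.276% of all), 28 (84.8% of them and 1.29% of those higher in S) were among the circRNAs higher in S, and of the 14 lower in R (0.117% of all), 11 (78.6% of them and 0.546% of those lower in S) were among those lower in S. The part of linear mRNA signal in this was not tested.

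Some circRNAs were well above background on every array of one strain and on none of the other. There were 50 present on all 3 S arrays and on no WKY array, and 43 with the reverse pattern. Their folds are lower bounds, the mean of the brighter strain against the mean, per array of the dimmer strain, of the higher of the probe's signal and the lowest signal of a probe well above background. On S rat 1 that lowest signal was -3.09, against -5.06 and -4.09 on S rats 2 and 3, so a circRNA had to be brighter to be detected in S rat 1. These circRNAs entered only through the strain in which they were high, and their adjusted p rests on signals below background in the other strain, so both are given as description and not as support for a difference.

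ASCRPR006598 had the largest bound among those present in S, at least 13.2-fold higher, with -0.72, -1.43 and 0.083 in S against measured signals of -5.79, -4.85 and -6.16 in WKY (limma adjusted p = 0.00824). It was also well above background on all 3 R arrays and, in SHR, on 1 array. ASCRPR001748 was at least 9.11-fold, ASCRPR006412 at least 5.79-fold and ASCRPR011256 at least 4.49-fold higher in S (limma adjusted p = 0.0125, 0.0181 and 0.0222). On these 3, S rat 2 lay more than 2 units below S rats 1 and 3, and all were present on the 3 R arrays. ASCRPR001748 and ASCRPR006412 lost their calls without S rat 1, ASCRPR001748 also without WKY rat 2, and ASCRPR006412 also without S rat 3 or WKY rat 3. ASCRPR011256 lost its call without any one of S rats 1 and 3 and WKY rats 1 to 3, over log2 fold changes of 1.84 to 3.43. With normexp background correction, S minus WKY was 1.51 for ASCRPR006598 (limma adjusted p = 0.00977), 1.23 for ASCRPR001748, 0.94 for ASCRPR006412 and 0.69 for ASCRPR011256, all below the bounds, and the last 3 were not called (limma adjusted p = 0.0805, 0.101 and 0.216). ASCRPR011256 was not called from the deposited table either (S minus WKY 1.28, limma adjusted p = 0.0572).

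Among circRNAs present in WKY, ASCRPR009161 was at least 5.48-fold lower in S (limma adjusted p = 0.0281), with -3.47, 0.16 and -1.57 in WKY. It was not well above background on any R array, and it lost its call without S rat 1, S rat 3, WKY rat 2 or WKY rat 3 (log2 fold change -4.46 to -2.65). ASCRPR000752 was at least 2.93-fold lower (limma adjusted p = 0.00924), at -2.68, -2.22 and -2.70 in WKY, and 1 R array and no SHR array measured it well above background. ASCRPR007888 was at least 2.77-fold lower (limma adjusted p = 0.00583), at -3.00, -2.29 and -2.55 in WKY. For ASCRPR000752 and ASCRPR007888 R differed from WKY as well (R minus WKY with limma adjusted p = 0.0411 and 0.0366) and S minus R was 0.13 and -0.092. With normexp background correction, S minus WKY was -0.87, -0.37 and -0.20 for ASCRPR009161, ASCRPR000752 and ASCRPR007888, and none of the 3 was called (limma adjusted p = 0.252, 0.361 and 0.707). ASCRPR007888 was also not called from the deposited table (S minus WKY -0.54, limma adjusted p = 0.0902). These sizes, too, were below the bounds. The remaining one of the 4 with the largest bounds, ASCRPR010128, was low in S and present in the other 3 strains.

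Few S differences were called against both normotensive strains. S vs R, in the same fit, called 10 of 11962 circRNAs (0.0836%), 6 higher (0.0502%) and 4 lower (0.0334%) in S, and all 10 were also called in the same direction against WKY. The comparisons share the S arrays, so this is a count and not an independent repeat, and the S vs R calls themselves were known from earlier results of these data. An unadjusted p under 0.05 in both comparisons, in the same direction, was found for 1310 circRNAs. On all 10, every S rat lay outside the range of the other 9 rats. The 10 were chosen by their calls against WKY and R, so this is a description. The share of all circRNAs with this separation was not computed, and S and WKY alone did not overlap for 45% of them. On all 10, S differed from SHR as well (limma adjusted p of at most 0.0312), a comparison in which 20.1% of all circRNAs were called. R minus WKY passed for none of the 10 (lowest limma adjusted p = 0.0579), a comparison in which 0.894% of all circRNAs were called. The 4 lower in S were below background there and entered the test only through WKY, and with the filter on all 6 arrays 5 circRNAs were called against both strains, all of them higher in S.

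Of the 6 higher in S, ASCRPR008635 had a level of -0.84, -0.21 and -0.38 in S rats 1 to 3, -2.82, -2.11 and -3.28 in WKY and -3.13, -3.38 and -3.33 in R. S minus WKY was 2.26 and S minus R 2.80, both with an SE of 0.31 (limma adjusted p = 0.00149 and 0.00374). All 12 arrays measured it well above background, and the SHR rats lay at -2.48 to -1.85, below every S rat. ASCRPR005699 was at 0.23, 0.0017 and 0.023 in S, -1.40, -1.63 and -1.32 in WKY and -2.39, -2.47 and -2.46 in R, with the S level 2.90-fold that of WKY (S minus WKY 1.54, SE 0.22, limma adjusted p = 0.00168). Its values lay within 1 unit of each other in each of these strains, and R was the lowest, with R minus WKY at -0.99 (limma adjusted p = 0.0579).

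ASCRPR002759 had the tightest S values of the 10, at -1.28, -1.32 and -1.36, against -2.51, -2.68 and -2.50 in WKY (S minus WKY 1.24, SE 0.21, limma adjusted p = 0.0047). ASCRPR012875 was at -0.95, -1.24 and -0.81 in S and -2.28, -2.01 and -2.11 in WKY (S minus WKY 1.13, SE 0.22, limma adjusted p = 0.00783). ASCRPR003927 was at -0.071, -0.43 and -0.25 in S and -0.99, -1.49 and -1.41 in WKY (S minus WKY 1.05, SE 0.22, limma adjusted p = 0.00964). These 3 were well above background on all 12 arrays and had S minus R of 1.93, 1.58 and 1.84 (limma adjusted p = 0.00374, 0.0174 and 0.00599). ASCRPR007857 was at -1.25, -2.71 and -1.65 in S and -4.20, -4.25 and -4.41 in WKY, where 2 of 3 arrays measured it well above background (S minus WKY 2.41, SE 0.39, limma adjusted p = 0.00401). In R 1 of 3 arrays, and in SHR none, measured it well above background. It entered the test only through S, so its presence on every S array was set by the rule. Its adjusted p rests in part on signals below background and is given as a description.

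The 4 lower in S were well above background on all 9 arrays of the other strains and on 0 of 3 S arrays, so their adjusted p compares measured levels with signals below background and is given as a description. ASCRPR010128 was at -2.78, -2.31 and -2.31 in WKY and -2.62, -2.30 and -2.88 in R, at least 3.06-fold and 2.79-fold above S (limma adjusted p = 0.000566 and 0.00128). ASCRPR010127 was at -3.55, -2.64 and -2.96 in WKY, at least 2.04-fold above S, and at least 2.08-fold above S in R (limma adjusted p = 0.0012 and 0.0127). The signals of these probes, which have adjacent numbers, differed by at most 0.92 log2 units on any array, and the files do not say whether they share a host gene.

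ASCRPR001672 was at -2.71, -2.75 and -2.65 in WKY, at least 2.60-fold above S, and at least 4.10-fold above S in R (limma adjusted p = 0.00475 and 0.0176). ASCRPR009671 was at -3.77, -3.45 and -3.31 in WKY, at least 1.48-fold above S, and at least 2.13-fold above S in R (limma adjusted p = 0.00725 and 0.038). All 3 WKY values of ASCRPR009671 lay below -3.09, the lowest signal called well above background on S rat 1. The measured S signals of the 4 ran from -7.30 to -4.72 and were highest in S rat 1, the dimmest array, on each of the 4. With normexp background correction, S minus WKY was -0.44 for ASCRPR010128, -0.35 for ASCRPR010127, -0.21 for ASCRPR001672 and -0.071 for ASCRPR009671, below all 4 bounds, and none was called (limma adjusted p = 0.225 to 0.895). From the deposited table ASCRPR010128 and ASCRPR010127 were called, at -1.30 and -1.17, and ASCRPR001672 and ASCRPR009671 were not, at -0.65 and -0.52 (limma adjusted p = 0.0993 and 0.149).

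**Figure D4:**
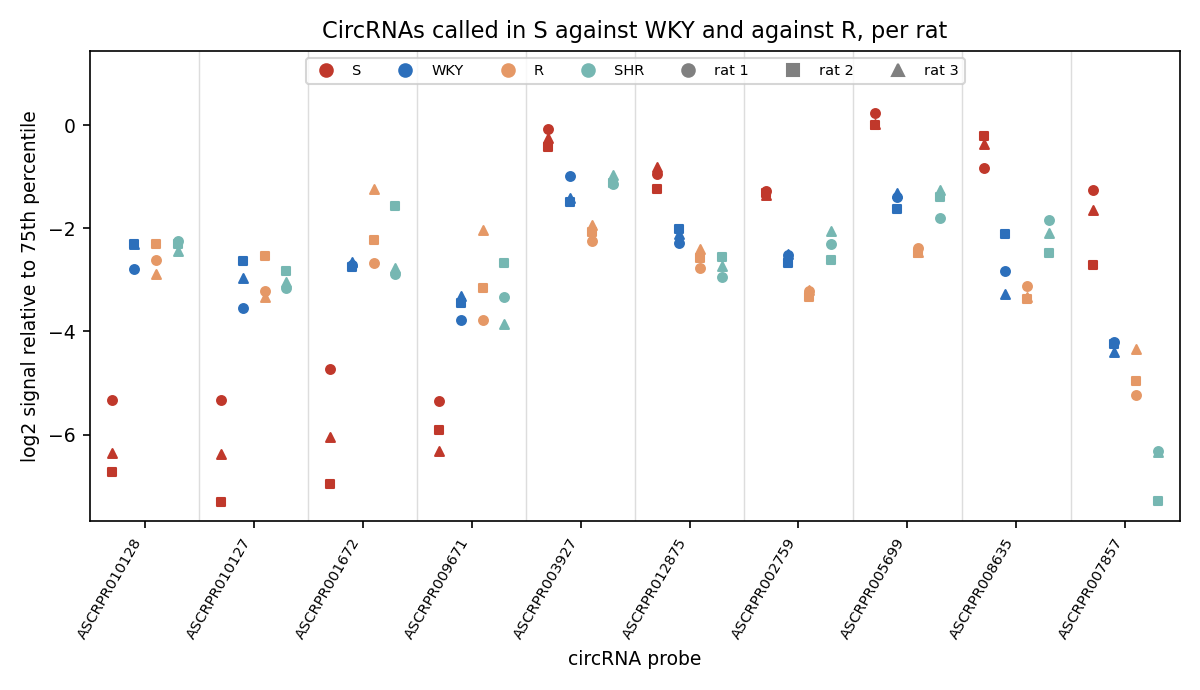
Log2 signal per rat (y axis) of the 10 circRNAs called in S against WKY and against R, ordered by S minus WKY. Colours are strains and symbols rat numbers. In each column the 3 red S symbols lie outside the range of the 9 others: below it on the left 4, where S was not well above background, and above it on the right 6.

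Each of the 10 kept its call against WKY whichever of the 12 rats was left out, as did 892 of the 4178 circRNAs called there. Calls against R were lost more often. The 10 were chosen by both calls on these same arrays, so this is a description. All 10 were called against R without S rat 1, S rat 2, R rat 3, SHR rat 2 or SHR rat 3. Without S rat 3 or R rat 2, 4 of them were, and without any one of the other rats 8 or 9. ASCRPR010128, ASCRPR008635, ASCRPR005699 and ASCRPR002759 kept both calls whichever rat was left out. With normexp background correction 3 circRNAs were called against both strains, all higher in S. With each comparison fitted on its own strains alone, limma called none of the 10 against R, where 585 circRNAs had an unadjusted p under 0.05 in both comparisons. From slide 1 alone, which holds all S and R arrays and WKY rats 1 and 2, 9 were called against WKY and 4 against both.

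The number of circRNAs called against both strains moved with S rat 2. Without it, 3106 circRNAs were called against both WKY and R in the same direction, 1524 higher and 1582 lower in S, where the S vs R count was 3569. Without S rat 2 and SHR rat 2 together the count was 3992, and with all rats kept and arrays weighted by their fit it was 5232. Without R rat 3 it was 58, and without S rat 3 or R rat 2 it was 4. The 10 were among the calls without S rat 2 and among those without R rat 3.

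The number called against WKY alone moved with single arrays as well. It was 1132 without WKY rat 2 and 1267 without WKY rat 3, and 892 circRNAs, 500 higher and 392 lower in S, were called whichever of the 12 rats was left out. Their median size was 2.15 log2 units. With slide as a block, which here gives the same fit of S vs WKY as leaving out WKY rat 3, the count was 1267, and from slide 1 alone it was 1414, and in both the 4178 circRNAs had a median difference of 1.43 in size, against 1.45 over all rats. No sign changed among the 4178 in any fit that left out a rat or used slide as a block. With other processing some did: 53 with normexp background correction, 30 with quantile normalization, 33 with both and 15 with the deposited table.

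**Figure D5:**
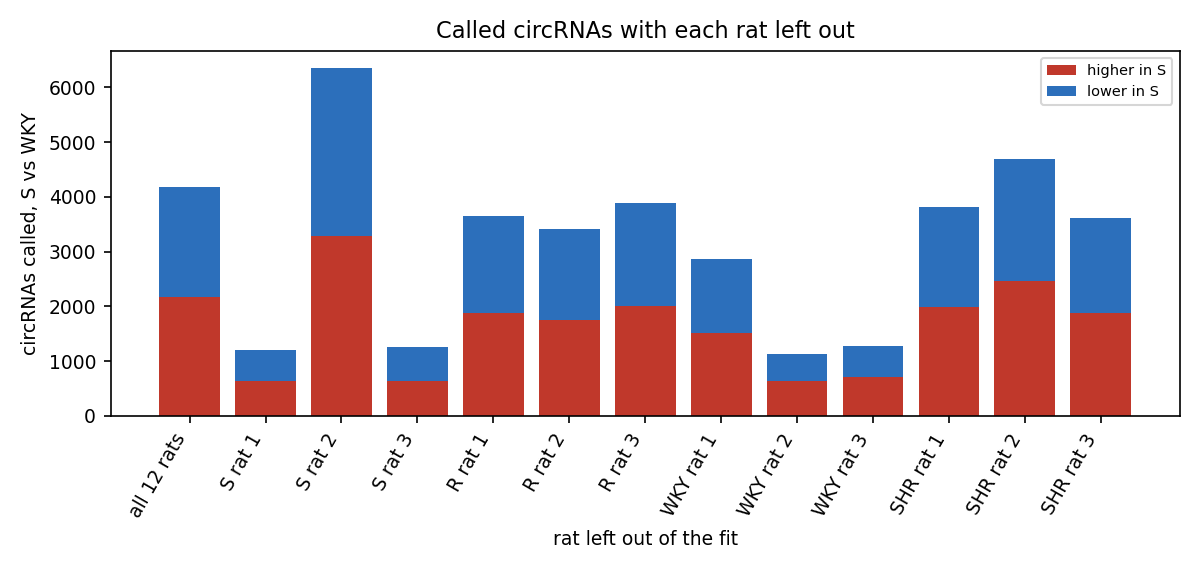
Bars give the number of circRNAs called in S vs WKY (y axis, from 0) with all 12 rats and with each rat left out of the fit, in red for higher and blue for lower in S. The count is 4178 with all rats, rises to 6354 without S rat 2 and falls to 1132 to 1267 without S rat 1, S rat 3, WKY rat 2 or WKY rat 3.

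The linear mRNA probes gave the size of the linear signal gene by gene. Of 35 probes to 34 genes, 24 passed (68.6%), of which 23 (65.7%) were lower in S and 1 was higher, and the median S minus WKY was -1.99 (limma, Benjamini-Hochberg adjusted p under 0.05). Rplp1, a ribosomal stalk protein, was at -1.77, 0.21 and -0.76 in S and 2.52, 6.27 and 5.85 in WKY (log2 fold change -5.66, limma adjusted p = 0.00398). Ldha, which encodes a chain of the enzyme that turns pyruvate into lactate, differed by -4.12 and -1.38 on 2 probes (limma adjusted p = 0.00969 and 0.0404). Cyp2e1, a cytochrome P450 enzyme of the proximal tubule, was at -1.38 ± 0.11 in S and 0.96 ± 0.64 in WKY (SD, n = 3 each, limma adjusted p = 0.0197). Ptk2b, a kinase related to focal adhesion kinase, was the one called higher, at 1.80, 0.42 and 0.97 in S and -1.93, -2.50 and -2.85 in WKY (log2 fold change 3.49, limma adjusted p = 0.0033). In S vs R none of the 35 was called by limma, with 2 at an unadjusted p under 0.05 and a median difference of -0.24.

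With the median linear mRNA signal of each array as a covariate, no circRNA was called in S vs WKY by limma (lowest adjusted p = 0.0797), and 1828 had an unadjusted p under 0.05. The median difference over the 4178 circRNAs shrank in size from 1.45 to 0.97, its SE grew from 0.39 to 0.55, and 122 changed sign. The covariate does not overlap between S and WKY, so the fit sets strain against a measure that moves with it. ASCRPR009161 changed sign, from -3.54 to 0.77 (limma adjusted p = 0.409). Among the 10 circRNAs called against both strains, ASCRPR008635 was at 2.86, ASCRPR002759 at 1.44, ASCRPR005699 at 1.32, ASCRPR007857 at 3.16, ASCRPR012875 at 1.09 and ASCRPR003927 at 0.89 with the covariate. ASCRPR010128 was at -3.45, ASCRPR010127 at -3.04, ASCRPR001672 at -3.88 and ASCRPR009671 at -2.74. None of the 10 was called (limma adjusted p of 0.0797 to 0.32). Against R, 9 of the 10 kept their call with it. ASCRPR013743 went from 12.12 to 4.55 and ASCRPR013097 from -5.26 to -2.09 (limma adjusted p = 0.384 and 0.322).

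The brightness rule decided which circRNAs could be described. It left out 2182 probes, of which 1100 were well above background on none of the 6 arrays and 613 on 2 of 3 arrays of a strain at best. Those 613 had a median level of -3.95 in the brighter strain, against -2.63 for the 2286 that passed through 1 strain only. Of the probes left out, 476 were well above background on all 3 arrays of R or of SHR and were not analysed here.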

How the data were processed

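Kidney RNA of 12 rats was measured on 1-colour arrays. Per the file headers, the deposited signal intensity of each spot is the processed signal of Agilent Feature Extraction 11.0.1.1, which is not normalized between arrays. The deposited table of log2 values covers 12846 circRNA probes; limma is named in the submitters' processing notes, and how the authors normalized these values is not given in the sources used here. Column medians were 6.70 to 6.75, each column matched its own array best (Spearman's rho at least 0.993), and the table was an alternative only.

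Control spots were left out, and log2 intensities were centred on each array's 75th percentile of circRNA probes. The 40 flagged circRNA spots were left out after that step. The fit (limma 3.58.1, R 4.3.3) used all 12 arrays with 1 mean for each strain and 8 residual degrees of freedom, and p-values were adjusted by Benjamini-Hochberg over 11962 probes. The number of arrays limits the precision. The procedure was tested on simulated data with independent noise for each probe. These held no outlying array and no difference in linear mRNA signal, so the test does not cover their effect on the calls. The mRNA probes (10 spots averaged per probe; 39 of 62 with an accession matched 1 gene in the RefSeq table of GRCr8, and 4 of these, Fgf2, P2rx2, Lhcgr and Gdnf, were on no array above background) were fitted apart.

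The circRNAs named were the 8 largest rises and 8 largest falls among called, non-overlapping probes above background on all 6 arrays, the 4 largest bounds each way, and all called against both WKY and R. Members and lists were chosen with earlier results of these data known. Of the 7 marker lists, proximal tubule (Cyp2e1) and leukocytes (Nlrp3, S minus WKY 0.29, limma adjusted p = 0.572) had 1 gene each with a tested probe and the other 5 none, so the tissue label could not be checked by markers. Alternatives covered background correction, scaling, filters, the deposited table, blocks, the covariate, the variance model, the call rule and each rat left out.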

Additional observations from a re-analysis of the deposited data

Results flagged for a closer look

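The arrays also carry 20 probes with neither a circRNA name nor an accession, which entered no comparison. Of these, 4 were well above background on all 6 S and WKY arrays, and what they detect is not given in the files used here.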

How the results depend on the processing

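The number of circRNAs called in S vs WKY, 4178, was within 1.5 times of itself under the unadjusted rule, with the deposited table, with quantile normalization (with or without normexp), with median scaling, with an intensity trend, with all probes kept and with the filter on all 6 arrays. It was 2089 with normexp, 1267 with slide as a block, 1414 from slide 1, 2159 with only the compared strains, 7866 with array weights and 0 with the linear mRNA covariate. Alternatives chosen after seeing the data gave 1700 with slide rows as a block and 7000 without S rat 2 and SHR rat 2. With 1 rat left out it was 1132 (WKY rat 2) to 6354 (S rat 2). The count against both WKY and R, 10, was 3 with normexp, 17 with quantile normalization, 5 with the filter on all 6 arrays, 4 from slide 1, 0 with only the compared strains or the covariate, 5232 with array weights, 1273 with the unadjusted rule, 4 with the row block and 3992 without S rat 2 and SHR rat 2, and 4 to 3106 with 1 rat left out. The 24 linear mRNA probes called became 11 with normexp and 17 to 25 with 1 rat left out. The share of probes above background differed by -9.50 to 0.38 percentage points. ASCRPR009161 reversed with the covariate, to 0.77; the cause was not tested. Of 945 values of 33 named circRNAs under 29 alternatives, 855 kept direction and call and 89 kept direction only, 32 of these under the covariate. Median scaling moved the median of all circRNAs by 0.12 log2 units. In tests of brightness bins added after seeing the data, the share of calls higher in S crossed 50% with median scaling in bins 1 (dimmest), 2 and 4, at 51.1%, 55.0% and 51.5%, and with quantile normalization in bins 1, 2 and 5, at 52.3%, 55.7% and 46.2%; the cause was not tested.

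Rat numbers did not pair the samples (S and WKY deviations correlated at 0.018, -0.16 and -0.28 for numbers 1 to 3, and 1 of 6 arrays correlated best with its own number). With the replicate number as a block, 2968 circRNAs were called in S vs WKY, 6 against both strains and 22 linear mRNA probes. Signal over background limits dim circRNAs, and most of all on S rat 1.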
